A study of Homo sapiens with 12 samples.

Results

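To describe the transcriptome after CEACAM6 knockdown with a single siRNA, the 4 samples of SNU308 cells transfected with siCEACAM6#2 were compared with 4 samples that received NTC, a non-targeting control siRNA. These 8 samples are part of a series of 12, whose other 4 received siCEACAM6#3, a second siRNA against the same transcript. SNU308 is a human gallbladder cancer line, here of wild-type genotype per the labels. All groups were transfected at 25 nM and RNA was isolated after 3 days, so the NTC cells had also received a transfection reagent and a duplex RNA. The 4 replicates of a group are described as individual experiments on 1 cell line. mRNA was sequenced, and the total estimated count ran from 21874146 to 22059456 over the 8 samples.

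CEACAM6 is a glycosylphosphatidylinositol-anchored cell surface glycoprotein of the carcinoembryonic antigen family, which mediates adhesion between epithelial cells and is often overexpressed in carcinomas. An siRNA is loaded into an Argonaute protein, and its guide strand directs cleavage of a fully paired transcript. As background, a guide can also lower transcripts that pair only with its seed, the stretch from position 2 to 8 at its 5′ end, when the paired site lies in a 3′ UTR. The target of siCEACAM6#2 is therefore shown first, 5′ to 3′ in the sense of the transcript, with the bases that pair with guide positions 2 to 8 in capitals. The guide sequence was assumed to pair with the whole target.

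siCEACAM6#2: cagccatgcaatgCCAAATAa

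In GRCh38 this 21-base target lies at chr19:41771369-41771389 on the plus strand, in exon 6 of 6 of CEACAM6 (ENSG00000086548), 608 bases into a 3′ UTR of 1450 bases (GENCODE release 44). No annotated transcript of another gene held the whole target, and none held its reverse complement.

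CEACAM6 itself was examined first. Its level in CPM, the usual scaling of a gene's count to the size of its library, was 524, 569, 596 and 619 in the NTC samples. With siCEACAM6#2 it was 353, 343, 286 and 329. Every siCEACAM6#2 sample was thus below every NTC sample. The mean fell from 577 ± 40.6 to 328 ± 29.6 CPM (SD, n = 4), or 56.8% of NTC, and the log2 fold change of -0.82 ± 0.07 (SE) passed limma-voom (adjusted p = 2.71e-05, by the method of Benjamini and Hochberg as for every adjusted p here). Permuting the labels of the 8 samples in an exact test, two-sided, gave p = 0.0286, the smallest value this design allows. With siCEACAM6#3 the log2 fold change was -0.46, and the difference between the siRNAs passed the test (0.35 on the log2 scale, limma-voom adjusted p = 0.016). The other family members did not pass. CEACAM5 measured 1673 ± 169 CPM in NTC and 1503 ± 116 CPM with siCEACAM6#2 (log2 fold change -0.15, limma-voom adjusted p = 0.498). CEACAM1 measured 15.7 ± 0.999 and 13.9 ± 1.12 CPM. CEACAM7 and CEACAM19 lay near 1 CPM in NTC, at 1.19 and 1.42 CPM. Because family members share sequence, their estimated counts are less certain than those of single-copy genes.

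Before the wider comparison, the samples were compared with each other. In a principal component analysis of the 8 samples, the first component (26.2% of the variance) placed all NTC samples on 1 side of all siCEACAM6#2 samples. The second (16.6%) set siCEACAM6#2 replicate 1 apart from the other 7, at -25.7 against values from -1.69 to 10.2. For some results in which this replicate stood apart, values without it or replicate by replicate are given as well. The mitochondrial share of counts was 11.8% to 12.9% in NTC and 12.2% to 13.3% with siCEACAM6#2 (exact permutation test, two-sided, p = 0.343). Epithelial markers were present in these cells. Of 15 biliary and gallbladder epithelial markers, 13 reached a mean of 1 CPM, with a summed level of 10599 to 11592 CPM in NTC and 11008 to 12367 CPM with siCEACAM6#2. Of these, TSPAN8, a tetraspanin, rose. Markers of other cells were low. Fibroblast markers summed to 21.9 to 27.7 CPM in NTC and 23 to 27.5 CPM with siCEACAM6#2, and leukocyte markers to 30.1 to 44 and 31.4 to 45.5 CPM, of which CD68 was the only gene over 1 CPM. Hepatocyte markers summed to at most 2.19 CPM in all 8 samples, with FGB at 0 throughout. Endothelial markers summed to 14.4 to 16.8 CPM in NTC and 10.6 to 12.5 CPM with siCEACAM6#2. The member that fell was VWF (log2 fold change -0.44, limma-voom adjusted p = 0.0419), and its part in other results was not tested.

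Of 17620 genes tested, 221 were called at a limma-voom adjusted p under 0.05 (1.25%). Among them 108 were higher with siCEACAM6#2 (0.613% of genes tested) and 113 were lower (0.641%). The median absolute log2 fold change of the called genes was 0.46 for the higher and 0.36 for the lower group, and a change of at least 1.5-fold was reached by 30 higher and 13 lower genes. Over all genes tested the median log2 fold change was 0.00017. Of the called genes, 100 higher and 108 lower ones were protein coding, and the other 13 were long non-coding RNAs. The count depended on single libraries, being 324 without siCEACAM6#2 replicate 1, of which 189 were among the 221. It was 107 or fewer without any other siCEACAM6#2 sample or without any NTC sample, with the lowest count, 49, without siCEACAM6#2 replicate 3. Leaving out siCEACAM6#3 replicate 4, which enters only through the shared estimate of spread, gave 371. A core of 44 genes, 27 higher and 17 lower, was called in all 12 fits that left out 1 sample. No called gene changed sign in any fit.

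**Figure D1:**
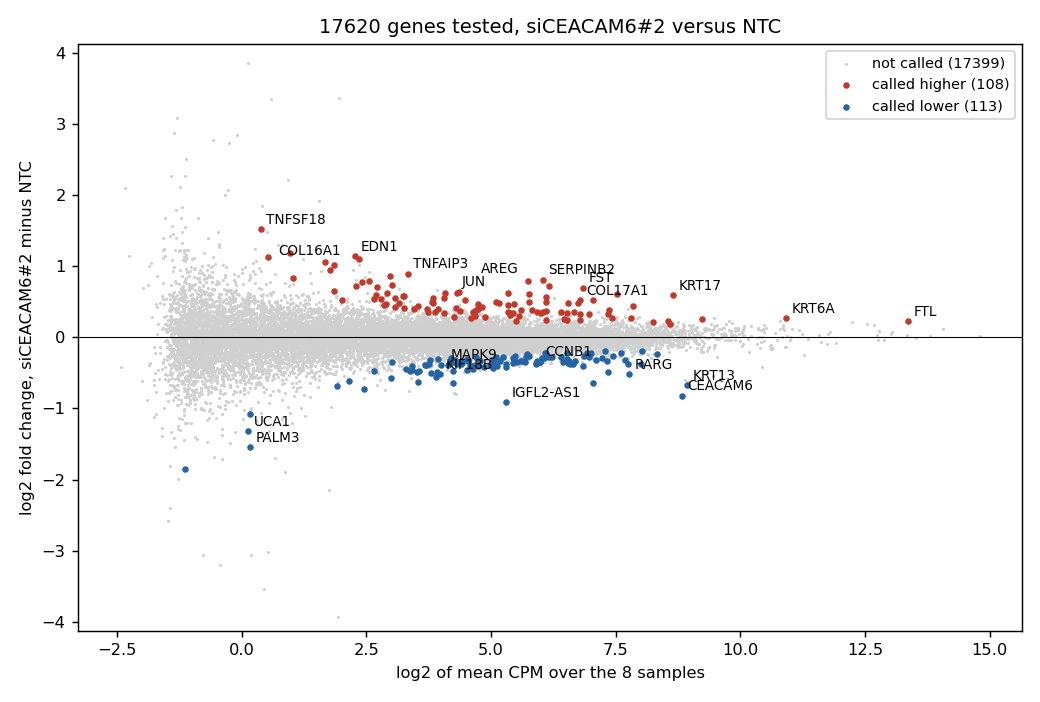
Log2 fold change of siCEACAM6#2 minus NTC (vertical axis) against the log2 of the mean CPM over the 8 samples (horizontal axis) for 17620 genes, 1 point per gene. The 108 genes called higher are red, the 113 called lower are blue and the rest are grey. The largest changes among called genes lie at low levels, and KRT6A and FTL, at the right, rose by 0.27 and 0.23 on the log2 scale.

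The reach of each change in every replicate was then recorded. Groups that do not overlap, with all 4 siCEACAM6#2 samples above all 4 NTC samples, were found for 941 of the genes tested (5.34%), and the opposite for 955 (5.42%). All 108 genes called higher had this separation, as did 111 of the 113 called lower. The other 2, CDC25B and PLP2, each had 3 of 4 siCEACAM6#2 samples below the NTC range, with replicate 1 inside it. The separation follows in large part from the test, so it adds only that each called gene had at least 3 samples outside the NTC range. Size did vary between replicates: the median deviation of the higher genes from the NTC mean was 0.42, 0.45, 0.53 and 0.39 on the log2 scale in replicates 1 to 4, and that of the lower genes was -0.30, -0.40, -0.40 and -0.35. The gap between the closest samples of the groups was at most 1.02 log2 units among the higher genes, for TNFSF18. Among the lower genes it was at most 1.31, for the non-coding RNA ENSG00000262712, whose mean was under 1 CPM in both groups.

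Next, the genes called lower were examined for the seed site of the siRNA, which the test had not used. A 3′ UTR was annotated for 13750 of the genes tested. The 7-base site CCAAATA was present in the 3′ UTR of 55 of 108 genes called lower (50.9%), CEACAM6 included. It was present in 2140 of all 13750 genes (15.6%) and in 11 of 100 genes called higher (11%). Those higher genes included TNFAIP3, DUSP1, CREB5, PERP, GALNT5 and GADD45A. The UTRs of the lower genes were somewhat longer, with a median of 1492 bases against 1283 over all genes. Per kilobase of UTR, the lower genes held 0.292 sites and all genes 0.0977. The longer form of the site, followed by an A, was found in 36 of the genes called lower (33.3%) and in 6.29% of all genes. The seed site of siCEACAM6#3, TACTAGT, was present in 8.33% of the same lower genes and in 6.63% of all genes. Read the other way, 2.46% of the 1750 genes with 1 site were called lower, as were 3.08% of the 390 genes with more sites and 0.457% of the 11610 genes without a site. The median log2 fold change over those 3 groups was -0.03, -0.03 and 0.0037. The share rested on the fit, since it was 39.9% without siCEACAM6#2 replicate 1 and between 46.1% and 65.5% when any other sample was left out. Whether these genes were lowered through the site was not tested.

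**Figure D2:**
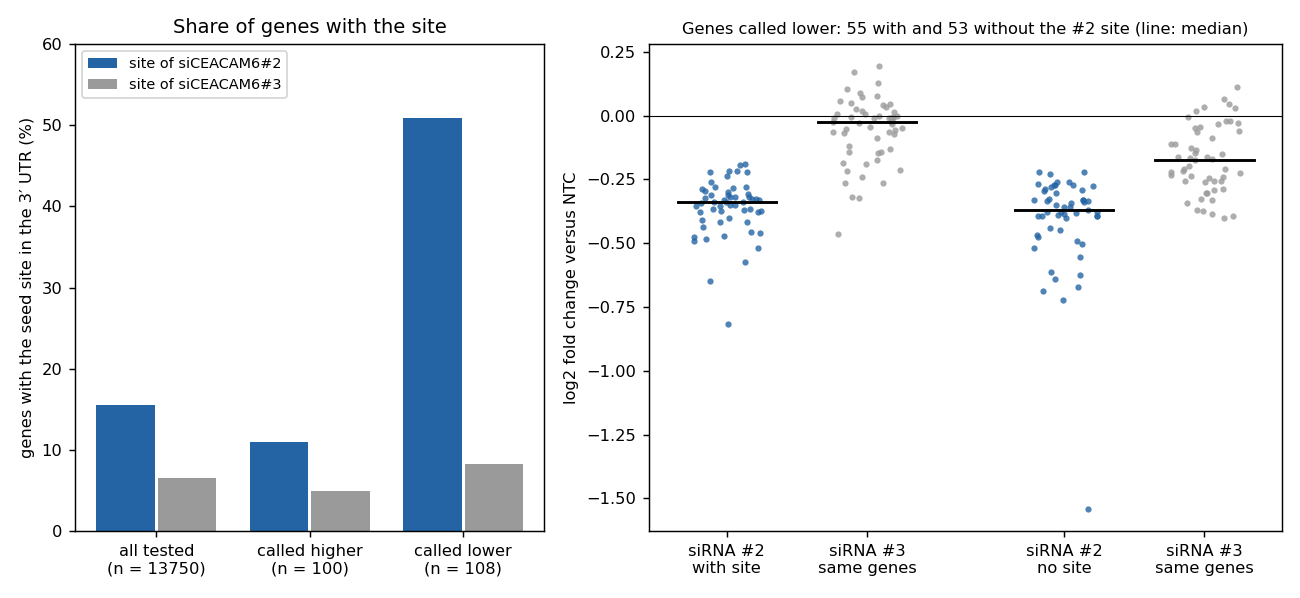
Left, bars give the percentage of genes whose 3′ UTR holds the seed site of siCEACAM6#2 (blue) or of siCEACAM6#3 (grey), for all genes tested, genes called higher and genes called lower with siCEACAM6#2, with blue bars of 15.6%, 11% and 50.9%. Right, each point is a gene called lower with siCEACAM6#2, with its log2 fold change versus NTC for each siRNA and black lines at the medians, and the 55 genes with the site have medians of -0.34 with siCEACAM6#2 and -0.02 with siCEACAM6#3.

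The genes called lower were next set beside the other siRNA. Both comparisons share the NTC samples, so their values are given side by side. For the 55 genes called lower with the site, the median log2 fold change was -0.34 with siCEACAM6#2 and -0.02 with siCEACAM6#3. For the 53 called lower without the site, the medians were -0.37 and -0.18. The direct difference between the siRNAs passed the test for 35 of the 55 genes and for 15 of the 53. Over all genes tested, 1.47% differed between the siRNAs. The 55 and 53 genes were picked for low values in the siCEACAM6#2 samples, which also enter this difference. The 1.47% of unpicked genes is therefore not a like background. Values nearer to NTC with siCEACAM6#3 can follow in part from that choice.

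For some of the genes called lower that held the site, it is printed with the same alignment as the target above. Each is given as 21 bases of the transcript in GRCh38 with the seed site in capitals. These genes were picked for display after their values were seen, and others with as much pairing as some of them, such as SC5D and MYO1C, are not printed.

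CEACAM6: cagccatgcaatgCCAAATAa
MAPK9: cagtatttaaatgCCAAATAa
RARG: ttgtatttagctgCCAAATAa
MYL6: ccgtcagcattcaCCAAATAa
HBEGF: tatactttgcaatCCAAATAa
DGCR2: tttcatccaaatgCCAAATAa
STRN: aaagagtttaatgCCAAATAt

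The MAPK9 site lies at chr5:180235990-180236010 on the minus strand and equals the target in 16 of 21 bases, with an unbroken run of 11 bases paired from guide position 2. The DGCR2 site (chr22:19036301-19036321, minus strand) and the STRN site (chr2:36848262-36848282, minus strand) had runs of the same length, with 13 of 21 bases equal. The sites of RARG (chr12:53210706-53210726, minus strand), MYL6 (chr12:56161540-56161560, plus strand) and HBEGF (chr5:140332862-140332882, minus strand) each had 12 bases equal.

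RARG encodes retinoic acid receptor gamma, a nuclear receptor that controls epithelial differentiation. It was at 251, 246, 269 and 261 CPM in NTC and at 184, 180, 178 and 174 CPM with siCEACAM6#2. All siCEACAM6#2 samples lay close together and under every NTC sample. Its log2 fold change of -0.52 ± 0.05 (SE) had the smallest adjusted p after that of CEACAM6 (limma-voom, 0.000234). With siCEACAM6#3 the value was -0.03, and the siRNAs differed (limma-voom adjusted p = 0.00116).

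MAPK9 encodes JNK2, a stress-activated kinase of the JUN pathway. It was at 38.6, 38.9, 40.1 and 41.1 CPM in NTC and at 30.7, 30.1, 30.6 and 28.2 CPM with siCEACAM6#2, with no overlap. The log2 fold change was -0.41 (limma-voom adjusted p = 0.00309), beside -0.0049 with siCEACAM6#3, and its 3′ UTR held 2 sites. MYL6, a myosin light chain, was at 188, 193, 197 and 185 CPM in NTC and at 151, 136, 128 and 129 CPM with siCEACAM6#2. It fell to 71.3% of NTC, beside a log2 fold change of -0.01 with siCEACAM6#3. HBEGF, a ligand of the EGF receptor, fell with siCEACAM6#2 (log2 fold change -0.34), while the 0.19 with siCEACAM6#3 did not pass (limma-voom adjusted p = 0.254), and the difference between the siRNAs did (adjusted p = 0.00189). NAA50, an N-terminal acetyltransferase, was among the genes with the largest loss in CPM, from 288 ± 6.76 to 223 ± 10.9. STAT3, a transcription factor of cytokine signalling, also held the site and showed a small change from 167 ± 2.64 to 146 ± 3.67 CPM (log2 fold change -0.19, limma-voom adjusted p = 0.0438).

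Several of the strongest losses were in genes without the site or in non-coding RNAs, for which no 3′ UTR is annotated. KRT13, a keratin of stratified epithelium, was at 602, 576, 642 and 566 CPM in NTC and at 460, 378, 323 and 350 CPM with siCEACAM6#2. The groups did not overlap, and replicate 1 was nearest to NTC. Its log2 fold change was -0.67 with siCEACAM6#2 and 0.03 with siCEACAM6#3, and the siRNAs differed (limma-voom adjusted p = 0.0066). HR, a histone demethylase and corepressor of nuclear receptors, fell from 161 ± 12.5 to 104 ± 12.3 CPM. The long non-coding RNA IGFL2-AS1 was at 50.8, 54.8, 53.6 and 46.9 CPM in NTC and at 22.3, 29.9, 27.2 and 31.1 CPM with siCEACAM6#2, a drop to 53.6%. UCA1, a long non-coding RNA known from urothelial cancer, fell from 1.55 ± 0.203 to 0.624 ± 0.191 CPM. PALM3, a paralemmin, fell from 1.66 ± 0.208 to 0.568 ± 0.157 CPM. The remaining large losses were LYPD1, KLHDC7A, POGLUT3, TGFB1I1 and the non-coding RNA ENSG00000284954, with log2 fold changes of -0.72, -0.69, -0.65, -0.61 and -1.07, the last of which was not called without siCEACAM6#2 replicate 1 (limma-voom adjusted p = 0.0914). Of these, POGLUT3, a protein O-glucosyltransferase, held the seed site.

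NF-kB signalling was examined next. NF-kB is the transcription factor family activated by TNF and interleukin-1, which induces its own inhibitors and many chemokines. Of 33 NF-kB components, feedback genes and TNF superfamily members tested, 5 rose and none fell, beside 0.613% of all genes tested called higher. A log2 fold change above 0 was found for 28 (84.8%, against 50.1% of all genes tested), with a list median of 0.15 against 0.00017. The called members were TNFAIP3, TNFSF18, BIRC3, TRAF1 and TNFRSF12A. TNFAIP3, which encodes the feedback inhibitor A20, was at 5.58, 6.59, 7.62 and 8.12 CPM in NTC and at 10.7, 14.6, 16 and 10.9 CPM with siCEACAM6#2. The groups did not overlap, and replicates 2 and 3 were highest. It rose 1.86-fold (log2 fold change 0.90 ± 0.16, limma-voom adjusted p = 0.00975), with 0.64 for siCEACAM6#3 and no difference between the siRNAs at this threshold (adjusted p = 0.484).

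BIRC3, an inhibitor of apoptosis, rose 1.54-fold, and TRAF1, an adaptor of TNF receptors, 1.46-fold. TNFRSF12A, the TWEAK receptor, rose from 145 ± 13.1 to 182 ± 8.08 CPM. TNFSF18, a ligand of the TNF family, was at 0.848, 0.534, 0.505 and 0.776 CPM in NTC and at 2.36, 1.8, 1.78 and 1.75 CPM with siCEACAM6#2. This was the largest fold among the genes called higher, 2.87-fold, at a low level, and without replicate 1 TNFSF18 was not called (limma-voom adjusted p = 0.0614). Without siCEACAM6#2 replicate 2 or 3 only 1 member of the list was called, without replicate 4 there were 3, and without replicate 1 there were 4.

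Among 28 chemokines and interleukins tested, 3 rose and none fell, beside 0.613% of all genes tested called higher. The list median was 0.18, against 0.00017 over all genes tested. Relative to the NTC mean, it was 0.10, 0.24, 0.19 and 0.11 in siCEACAM6#2 replicates 1 to 4. In NTC replicates 1 to 4 it was -0.09, -0.075, 0.13 and 0.078, so the groups overlapped. CX3CL1, the membrane-bound chemokine fractalkine, was at 42.2, 39.5, 44.2 and 45.1 CPM in NTC and at 57.8, 67.1, 74.4 and 62.8 CPM with siCEACAM6#2. No siCEACAM6#2 value came near the NTC range. The change of 0.61 ± 0.09 (SE) on the log2 scale passed the test (limma-voom adjusted p = 0.005), that of 0.05 with siCEACAM6#3 stood beside it, and the siRNAs differed (adjusted p = 0.00712). CXCL8, the neutrophil chemoattractant interleukin-8, rose 1.38-fold and IL32 1.82-fold. Promoters of 5 of 87 genes called higher held the NF-kB motif (5.75%), namely BIRC3, IL32, SERPINB7, TICAM1 and TNFAIP3, against 1.92% of 27305 RefSeq promoters, 2.1% of those of genes tested and none of 83 promoters of genes called lower. No interferon-stimulated or RNA-sensing gene of 45 tested was called by limma-voom or edgeR, and DESeq2 called 1. An unadjusted limma-voom p under 0.05 was found for 12, beside 2400 of the 17620 genes tested. A log2 fold change above 0 was found for 33 (73.3%, against 50.1% of all genes tested), with a list median of 0.11. Relative to the NTC mean, the list median was 0.059, 0.16, 0.092 and 0.094 in siCEACAM6#2 replicates 1 to 4. In the NTC samples it was -0.037 to 0.026. The smallest p in this list was that of IRF1, at 17.3 ± 1.52 and 23.6 ± 2.55 CPM (limma-voom adjusted p = 0.0684).

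**Figure D3:**
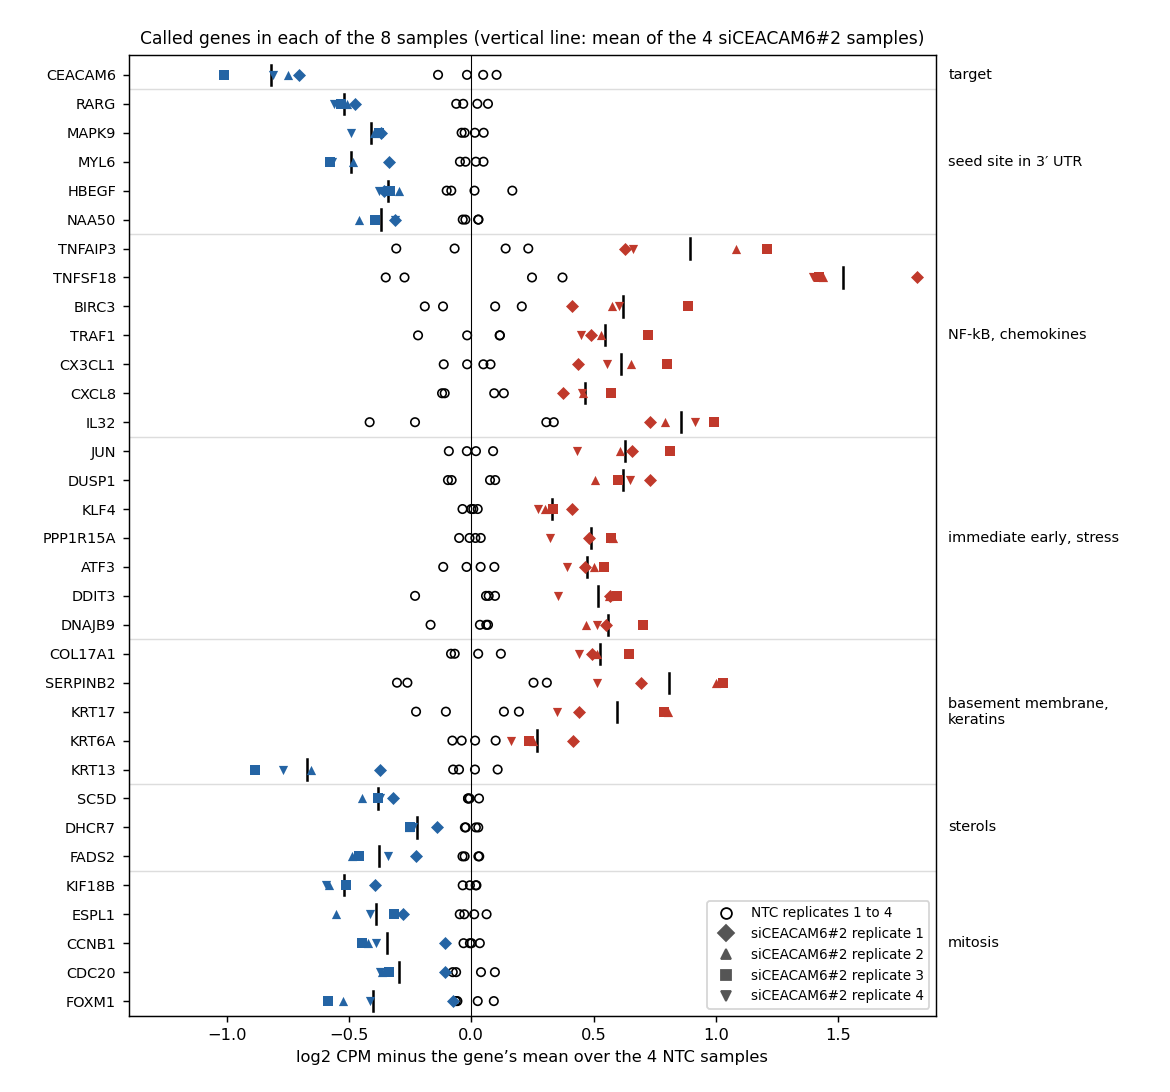
Log2 CPM minus the gene's mean over the 4 NTC samples (horizontal axis) for called genes in rows, with open circles for the NTC replicates, filled symbols for the 4 siCEACAM6#2 replicates (red higher, blue lower) and a vertical line at the siCEACAM6#2 mean. The filled symbols lie outside the open circles in every row, with replicate 1 next to the NTC values for CCNB1, CDC20 and FOXM1.

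Immediate early and growth factor genes followed. Of 34 genes of ERK output and feedback, JUN, KLF6 and DUSP1 rose and HBEGF fell (list median 0.08). Over all genes tested, 0.613% were called higher and 0.641% lower. JUN, a subunit of the AP-1 transcription factor, was at 31.4, 29.8, 32.2 and 33.8 CPM in NTC and at 50.1, 48.4, 55.9 and 42.9 CPM with siCEACAM6#2. It rose 1.54-fold with no overlap. DUSP1, a phosphatase that inactivates MAP kinases, rose from 5.89 ± 0.416 to 9.08 ± 0.596 CPM. For JUN and DUSP1 the siRNAs differed (limma-voom adjusted p = 0.0149 and 0.00712), with log2 fold changes of 0.12 and 0.06 for siCEACAM6#3. The AP-1 motif TGANTCA was found in 11 of 87 promoters of genes called higher (12.6%) and in 7.76% of all promoters, 5% of those of genes tested and 3.61% of those of genes called lower, on either strand of windows of 300 bases. Those promoters included CXCL8, DDIT3, FST, PERP, PLAUR, SCEL and SERPINB2. A match here is a description of the letters and no evidence of binding.

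In a list of the EGF receptor family, its ligands and other genes such as ERRFI1 and RNF43, 3 of 23 rose and 1 fell. The shares over all genes tested were 0.613% called higher and 0.641% called lower. AREG, which encodes the ligand amphiregulin, was at 34.2, 34.1, 42.5 and 45.8 CPM in NTC and at 63.9, 75.2, 74.9 and 57.5 CPM with siCEACAM6#2. Its change of 0.80 ± 0.11 (SE) passed the test in every fit tried, those without 1 sample included (limma-voom adjusted p = 0.00367). ERRFI1, a feedback inhibitor of the receptor, rose 1.31-fold. RNF43, a ubiquitin ligase that removes Wnt receptors, also rose 1.31-fold. IRS2, the insulin receptor substrate, rose 1.55-fold and was 1 of 2 genes called among 33 of the AKT and FOXO axis, with GADD45A.

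The other large gains were mostly at low levels. EDN1, which encodes the vasoconstrictor endothelin-1, was at 3.88, 2.54, 3.07 and 2.51 CPM in NTC and at 5.21, 8.31, 7.52 and 5.69 CPM with siCEACAM6#2. It rose 2.21-fold (log2 fold change 1.14 ± 0.22 SE, limma-voom adjusted p = 0.0169), beside 0.26 with siCEACAM6#3, and the siRNAs differed (adjusted p = 0.0427). FILIP1L rose 2.28-fold, with 0.81 on the log2 scale for siCEACAM6#3. CREB5, a transcription factor of the CREB family, rose 2.03-fold, KRT75, a keratin, 1.94-fold and SDR16C5, a retinol dehydrogenase, 1.79-fold. C2CD4A rose 2.2-fold from a mean of 0.893 CPM. UPP1, uridine phosphorylase, changed at a higher level, from 129, 131, 157 and 164 CPM in NTC to 203, 245, 251 and 185 CPM with siCEACAM6#2. ZCCHC24, a zinc finger protein, was at 4.38, 3.47, 3.99 and 3.79 CPM in NTC and at 6.89, 6.09, 6.98 and 6.94 CPM with siCEACAM6#2, and its groups were separated by one of the widest gaps among the genes called higher.

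Stress response genes were then examined. The integrated stress response and the unfolded protein response slow translation and induce chaperones when the endoplasmic reticulum or amino acid supply is strained. Of 43 genes tested, PPP1R15A, ATF3, DDIT3 and DNAJB9 rose and none fell, beside 0.613% of all genes tested called higher. A value above 0 was found for 33 (76.7%, against 50.1% of all genes tested), and the list median was 0.08. Without siCEACAM6#2 replicate 1, 4 genes were called and the median was 0.07. PPP1R15A, which encodes the phosphatase subunit GADD34, was at 79.6, 74.9, 78.5 and 77.2 CPM in NTC and at 108, 116, 115 and 96.9 CPM with siCEACAM6#2. The groups did not overlap, and replicate 4 was the lowest treated sample. Its log2 fold change was 0.49 ± 0.06 (SE, limma-voom adjusted p = 0.00125), beside 0.15 with siCEACAM6#3 (difference adjusted p = 0.00776). ATF3, a stress-induced transcription factor, was at 22, 23.8, 20.6 and 22.9 CPM in NTC and at 30.8, 31.6, 32.5 and 29.2 CPM with siCEACAM6#2. The siRNAs differed for ATF3 (adjusted p = 0.00669) and no difference was found for DDIT3, which encodes CHOP, or for DNAJB9, an endoplasmic reticulum chaperone. In replicate 1, 31 of the 43 genes exceeded every NTC sample (72.1%), against 19, 22 and 23 in the other replicates. Over all genes tested that share was 25.1%, 27.3%, 27.8% and 24% in replicates 1 to 4.

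Heat shock genes gave a similar contrast between replicates. In replicate 1, 16 of 22 exceeded every NTC sample (72.7%), against 3, 5 and 5 in replicates 2 to 4, and the list median of the group was -0.01, or -0.04 without replicate 1. Only CRYAB, a small heat shock protein of the lens and muscle, was called. It was at 4.78, 3.74, 4.27 and 4.33 CPM in NTC and at 6.39, 8.03, 7.3 and 8.11 CPM with siCEACAM6#2, and had a log2 fold change of -0.17 with siCEACAM6#3 (difference, limma-voom adjusted p = 0.00189).

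Genes of the basement membrane, proteolysis and the keratins were divided. Among 57 matrix proteases, inhibitors and matrix genes, 5 rose and none fell, although the list median was 0.01. Over all genes tested, 0.613% were called higher and 0.641% lower. COL17A1, the hemidesmosomal collagen, was at 85.8, 86.7, 98.8 and 92.6 CPM in NTC and at 128, 130, 142 and 123.4 CPM with siCEACAM6#2. Its log2 fold change of 0.52 ± 0.06 (SE, limma-voom adjusted p = 0.00124) was called in every fit tried. SERPINB2, a plasminogen activator inhibitor, was at 39.2, 38.1, 56.1 and 58.3 CPM in NTC and at 76.2, 94, 96.1 and 67.2 CPM with siCEACAM6#2. NTC replicates 1 and 2 were lower than 3 and 4 for this gene, as they were for TNFAIP3, IL32, AREG, KRT17, UPP1 and FST, and the spread within NTC (SD 10.7) was large beside that of COL17A1 (SD 6.04). SERPINB7 rose 2.14-fold and PLAUR, the urokinase receptor, 1.5-fold. COL16A1, a fibril-associated collagen outside the list, rose 2.08-fold from 2.08 ± 0.377 CPM.

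Of 30 keratins and cornified envelope genes, KRT6A, KRT17 and SCEL rose and KRT13 fell. The shares over all genes tested were 0.613% called higher and 0.641% called lower. KRT6A, induced in activated epithelium, was at 1712, 1667, 1885 and 1778 CPM in NTC and at 2348, 2097, 2072 and 1968 CPM with siCEACAM6#2. Among called genes its gain in CPM was exceeded by that of FTL, ferritin light chain, which rose from 9748 ± 307 to 11436 ± 561 CPM and was the only called gene of 39 in the NRF2 antioxidant list. KRT17 rose 1.51-fold. No integrin subunit of 16 was called by limma-voom, edgeR or DESeq2. An unadjusted limma-voom p under 0.05 was found for 2 of them, beside 2400 of the 17620 genes tested. ITGA5 was the closest at 25.6 ± 1.73 and 29.6 ± 1.87 CPM (limma-voom adjusted p = 0.158). TNS1, tensin 1, was the only called gene of 42 in the focal adhesion and cytoskeleton list. It fell to 72.3% of NTC and held the seed site. PERP, a desmosomal protein and p53 target, rose 1.19-fold as the only called gene of 44 epithelial junction genes. FST, the activin antagonist follistatin, rose from 88.6 ± 16.8 to 142 ± 17.8 CPM as the only called gene of 42 in the activin, TGF-beta and BMP axis. No gene of 29 YAP and TEAD targets was called by limma-voom, where 7 had an unadjusted p under 0.05, while edgeR called 1 lower and DESeq2 1 in each direction. A value above 0 was found for 24 (82.8%, against 50.1% of all genes tested), with a list median of 0.098. Relative to the NTC mean, the list median was -0.0067, 0.048, 0.15 and 0.079 in siCEACAM6#2 replicates 1 to 4. In the NTC samples it was -0.023 to 0.013. TEAD2, with the smallest p, was at 41.4 ± 1.25 and 34.6 ± 0.549 CPM (limma-voom adjusted p = 0.0552).

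Sterol and lipid genes were a further list. Cells make cholesterol through a chain of enzymes whose genes are induced by SREBP factors when sterols are scarce. Of 38 genes of cholesterol and fatty acid synthesis, 4 fell and none rose, beside 0.641% of all genes tested called lower. A value below 0 was found for 32 (84.2%, against 49.9% of all genes tested), and the list median was -0.13. In replicates 1 to 4, 24, 29, 28 and 23 of them lay under every NTC sample, and over all genes tested that share was 24.7%, 28.1%, 28.3% and 23.4%. SC5D, which acts late in the pathway, was at 67.3, 69.4, 67.6 and 67.3 CPM in NTC and at 54.5, 49.9, 52.2 and 52.4 CPM with siCEACAM6#2. The NTC samples differed by little and none overlapped. The log2 fold change was -0.38 ± 0.05 (SE, limma-voom adjusted p = 0.00434), beside -0.07 with siCEACAM6#3 (difference adjusted p = 0.0112), and the 3′ UTR of SC5D held the seed site. DHCR7, the enzyme after it, held no site and fell to 85.8% of NTC (limma-voom adjusted p = 0.0431, and 0.0315 without replicate 1), with log2 fold changes of -0.22 and -0.21 for siCEACAM6#2 and siCEACAM6#3. FADS2, a fatty acid desaturase, fell to 77.1%. Without replicate 1, 6 genes of the list were called, and without replicate 2, 3 or 4 the count was 1, 1 and 2.

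In the cell cycle genes, siCEACAM6#2 replicate 1 differed from the other replicates. Proliferating cells raise E2F targets and replication genes before DNA synthesis and the mitotic genes before division. In 4 lists of mitotic regulators, spindle and kinetochore genes, replication genes and E2F targets, 167 genes were tested. Of these, 12 fell and none rose, beside 0.641% of all genes tested called lower. A value below 0 was found for 159 (95.2%, against 49.9% of all genes tested), and the median log2 fold change was -0.20. In replicates 2, 3 and 4, 148, 151 and 135 of the 167 lay under every NTC sample (88.6%, 90.4% and 80.8%). In replicate 1 only 46 did (27.5%), near the 24.7% of all genes tested, and 31 lay above every NTC sample. The median deviation of the 167 genes from the NTC mean was -0.0028 in replicate 1 and -0.29, -0.30 and -0.23 in replicates 2 to 4. The medians of the 4 lists, in the order above, were -0.26, -0.22, -0.18 and -0.19 with siCEACAM6#2. With siCEACAM6#3, compared with the same NTC samples, they were -0.20, -0.18, -0.16 and -0.18. The siCEACAM6#2 medians include replicate 1, in which the list medians relative to the NTC mean were -0.071, -0.025, 0.0095 and 0.038. In replicates 2 to 4 they ran from -0.29 to -0.33, -0.26 to -0.29, -0.16 to -0.26 and -0.18 to -0.32. Because the lists were chosen with earlier results of these data known, these counts describe them and test nothing.

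**Figure D4:**
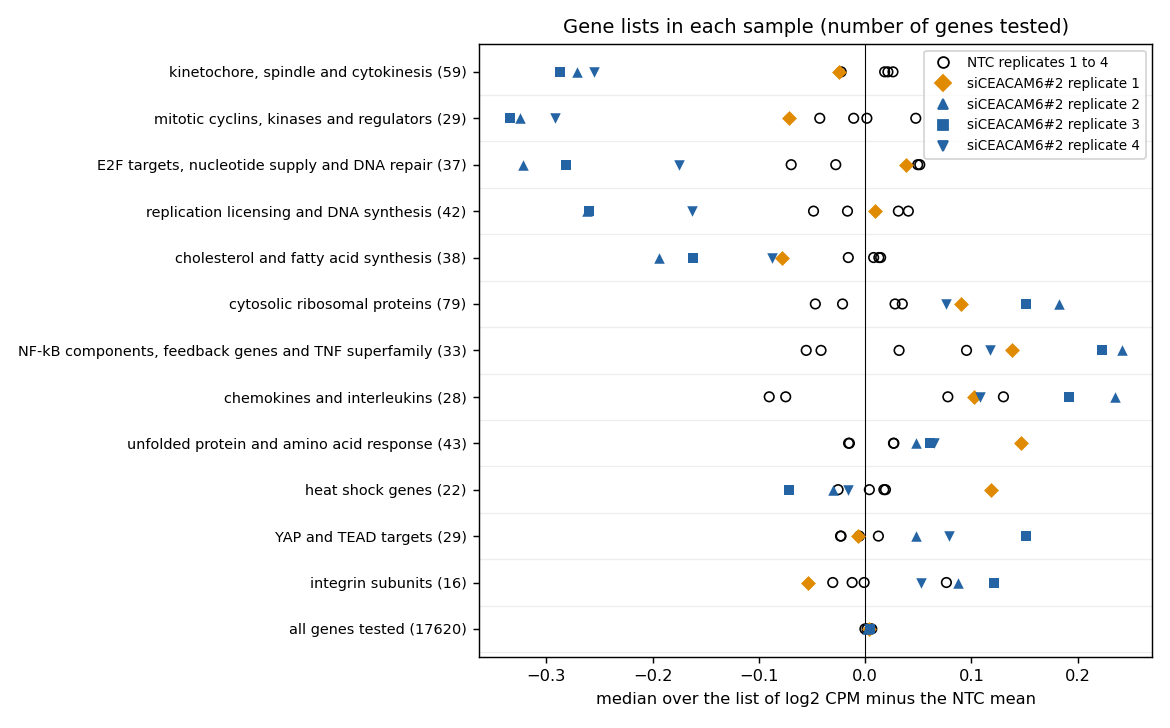
Median over each gene list of log2 CPM minus the NTC mean (horizontal axis) in each sample, with the number of genes tested after the list name. Open circles are NTC replicates, the orange diamond is siCEACAM6#2 replicate 1 and blue symbols are replicates 2 to 4. In the cell cycle lists replicate 1 lies among or next to the NTC samples and the other 3 lie between -0.16 and -0.33, while it is the highest sample for the unfolded protein and heat shock lists.

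Individual cell cycle genes differed in this respect. KIF18B, a kinesin of spindle microtubules, was at 18.9, 18.2, 18.6 and 18.9 CPM in NTC and at 14.2, 12.5, 13.1 and 12.4 CPM with siCEACAM6#2. All 4 replicates were lower, and the log2 fold change of -0.52 ± 0.07 (SE, limma-voom adjusted p = 0.00434) was called in each of the 12 fits without 1 sample. ESPL1, the protease separase, was at 35.2, 37.5, 34.8 and 36.2 CPM in NTC and at 29.6, 24.5, 28.9 and 27 CPM with siCEACAM6#2 and was likewise called in all 12. CCNB1, which encodes the mitotic cyclin B1, was at 72, 70, 70.3 and 68.8 CPM in NTC and at 65.2, 52.4, 51.5 and 53.6 CPM with siCEACAM6#2. FOXM1, the transcription factor of mitotic genes, was at 132, 124, 138 and 125 CPM in NTC and at 123.2, 90.3, 86.5 and 97.5 CPM with siCEACAM6#2. For both, replicate 1 lay just under the lowest NTC value. The calls of CCNB1, FOXM1 and the other 8 were held in only 4 to 6 of the 12 fits. Those 8 were CDC20, CDC25B, NCAPD2, TACC3, CDCA8, KIFC1, POLD1 and TK1. Without replicate 1, the 4 lists had 12, 13, 5 and 7 genes called lower, and without replicate 2, 3 or 4 they had 0, 2, 0 and 0.

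A further list held genes chosen for quantitative PCR by the study, CEACAM6 aside. Of its 11 members tested, only CCNB1 passed, beside 1.25% of all genes tested. PCNA, the sliding clamp of replication, was at 65.6 ± 3.95 CPM in NTC and 58 ± 8.2 CPM with siCEACAM6#2, MCM2 at 165 ± 7.43 and 141 ± 17.5 CPM and CCNA2 at 50.4 ± 2.77 and 42.2 ± 5.46 CPM. In each of these 3, the siCEACAM6#2 SD exceeded the NTC SD, and replicate 1 was within the NTC range. ICAM1, at 57.7 ± 7.17 and 72.9 ± 9.16 CPM, and DLC1, at 2.42 ± 0.31 and 3.4 ± 0.27 CPM, did not pass the test (limma-voom adjusted p = 0.15 and 0.116). Nor did MMP13, CEMIP, ARNT2 and TMPRSS11E, with log2 fold changes of -0.02, 0.04, -0.22 and 0.78.

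A promoter letter count was made for the same genes. The cell cycle homology region (CHR) motif TTTGAA was found in 51 of 139 promoters of the 4 cell cycle lists (36.7%) and in 6 of the 11 promoters of their called members, namely CDC20, CDCA8, ESPL1, KIF18B, KIFC1 and NCAPD2. It was found in 15.4% of all promoters and in 9.87% of those of genes tested. The E2F motif, searched as TTTCCCGC or TTTGGCGC, was in 20.1% of the cell cycle promoters, in 2.31% of all promoters, in 3.55% of those of genes tested and in none of the 11. TTTGAA was held by 21.8% of promoters of genes called higher and by 13.3% of those of genes called lower.

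Of 30 CDK inhibitors and p53 targets, 3 rose and none fell, beside 0.613% of all genes tested called higher (list median 0.03). CDKN2B, an inhibitor of CDK4 and CDK6, was at 70.7, 75.9, 75.4 and 75.7 CPM in NTC and at 94, 97, 98.8 and 91.8 CPM with siCEACAM6#2. It rose 1.28-fold, beside a log2 fold change of 0.10 with siCEACAM6#3, and the siRNAs differed (limma-voom adjusted p = 0.0247). PLK2, a stress-responsive polo-like kinase, rose 1.48-fold and CCNG1, a p53 target, 1.19-fold. KLF4, a transcription factor of epithelial differentiation, was at 112, 107, 110 and 111 CPM in NTC and at 147, 136, 139 and 133 CPM with siCEACAM6#2 (log2 fold change 0.33, limma-voom adjusted p = 0.00434), beside -0.01 with siCEACAM6#3. It was the only called gene of 21 regulators of epithelial to mesenchymal transition, as RNF43 was of 31 genes of the Notch and Wnt axis and BIRC3 of 36 apoptosis regulators. Of 36 senescence markers and secreted factors, AREG, CXCL8 and PLAUR rose, beside 0.613% of all genes tested called higher. All of them are named above. GALNT5, a transferase that starts O-glycans on mucins, rose 1.28-fold as the only called gene of 43 in the mucin and O-glycosylation list.

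Ribosomal protein genes had small fold changes, of which few passed the test. Of 79 cytosolic ribosomal protein genes, 77 had a log2 fold change above 0 (97.5%, against 50.1% of all genes tested), with a list median of 0.12. In replicates 1 to 4, 53, 73, 69 and 49 of them lay above every NTC sample, against the shares of 24% to 27.8% given above for all genes. Only RPS12 and RPS18 passed the test, beside 0.613% of all genes tested called higher. Without siCEACAM6#2 replicate 3 none of the 79 did by limma-voom, and without replicate 1 there were 5. RPS12 was at 209, 206, 202 and 199 CPM in NTC and at 227, 245, 261 and 255 CPM with siCEACAM6#2. As these genes have many pseudogene copies, their counts are uncertain.

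Several lists held no gene called by limma-voom. Over all genes tested, 2400 of 17620 had an unadjusted limma-voom p under 0.05. Of the 13 mitochondrially encoded mRNAs, 3 had an unadjusted p under 0.05, as did 1 of 76 nuclear-encoded respiratory chain genes, and neither list held a call by edgeR or DESeq2. For hypoxia and glycolysis the unadjusted count was 8 of 36, for lysosome and autophagy 5 of 35 and for the RNA interference machinery 4 of 16. In these 3 lists edgeR called no gene, and DESeq2 called 1, 3 and 1. Their smallest p belonged to P4HA1, SQSTM1 and AGO4 (limma-voom adjusted p = 0.0879, 0.0685 and 0.111).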

How the data were processed

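Per the study's methods, the authors trimmed reads with Trim Galore and quantified them with kallisto against GENCODE transcripts of GRCh38.p13 (release not stated) and deposited estimated counts and TPM values per gene. The methods and the labels give different read layouts, kallisto versions and transfection reagents. The estimated counts were rounded and filtered with filterByExpr, which kept 17620 of 60617 genes. limma 3.58.1 (voom, TMM factors from edgeR 4.0.16, R 4.3.3) was fitted to all 12 samples, with 3 group means. Benjamini-Hochberg adjusted p under 0.05 was called. The deposited TPM served in 2 alternatives. DESeq2 1.42.0 was another. Counts at this depth limit genes under 1 CPM most. UTRs came from GENCODE release 44, promoters from RefSeq (GRCh38.p14). Named genes were CEACAM6, the 12 higher and 12 lower called genes with the largest fold and a mean of at least 1 CPM, the 5 and 5 with the largest CPM change, the 5 and 5 with the widest gap, called members of 35 lists, the smallest p of each other list, and CEACAM family and quantitative PCR genes. Others were chosen after their values were seen. The members and lists were chosen with earlier results of these data known. Same-numbered NTC and siCEACAM6#2 replicates did not deviate together. Some genes that this rule names are not reported here.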

Additional observations from a re-analysis of the deposited data

Results flagged for a closer look

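Within-group spread was examined in 230 groups of 4 samples, each the log2 CPM of a named gene or the median of a gene list in NTC or in siCEACAM6#2. In 17 of them 1 sample lay farther from the other 3 than Dixon's 95% criterion allows, where chance gives about 1 in 20, or 11.5. In 9 of the 17 the sample was siCEACAM6#2 replicate 1. Its log2 CPM was 6.06 for CDC20, 6.03 for CCNB1 and 5.76 for CDC25B, each above the other 3 siCEACAM6#2 samples, whose values were 5.79 to 5.83, 5.69 to 5.74 and 5.47 to 5.52. The list medians gave the same order, with -0.071 for mitotic regulators (others -0.33 to -0.29) and -0.025 for spindle and kinetochore genes (others -0.29 to -0.26). Replicate 1 was also high for DHCR7 at 7.56, for TNFSF18 at 1.25 and for the median of the unfolded protein response list at 0.147, and low for ENSG00000284954 at -0.94.

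Other samples stood apart in single genes. In siCEACAM6#2 these were replicate 2 for ZCCHC24 (2.61, low) and replicate 4 for DDIT3 (4.55, low). In NTC they were replicate 1 for CDKN2B (6.14, low), replicate 2 for CDC25B (5.74, low) and SC5D (6.12, high), replicate 3 for DNAJB9 (3.37, low), and replicate 4 for DDIT3 (3.97, low) and for the spindle and kinetochore median (-0.023, low).

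The direct test between the siRNAs was passed by 85 of the 221 called genes, 34 higher and 51 lower with siCEACAM6#2. The 221 were picked with the siCEACAM6#2 samples that also enter this test, which favours such differences. CEACAM6 was among them, its level being 0.35 higher on the log2 scale with siCEACAM6#3 than with siCEACAM6#2. The cause of these differences was not tested.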

How the results depend on the processing

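No called gene reversed in any alternative. The 221 calls became 534 with DESeq2, 585 with the 8 samples alone, 1120 with sample weights, 5 and 6 with limma-trend on log2(TPM + 1) and log2(TPM + 0.1), 50 at an adjusted p under 0.01 and 43 with a change of at least 1.5-fold added. Leaving out 1 sample gave 49 to 371. The 59 called list members became 134, 136, 229, 4 and 4 under the first 5 of these, and 26 to 96 without 1 sample. The share of lower genes with the seed site, recomputed by a choice made after seeing the data, was 61.2% with no filter on low counts, 40.1% with the 8 samples alone, 30.7% with sample weights, 100.0% of 2 and 66.7% of 3 lower genes with the TPM fits, and 39.9% to 65.5% without 1 sample. Among genes that were not called, AGO4 turned to -0.10 and -0.11 with the TPM fits, while without 1 sample MMP13 ranged from -0.058 to 0.0079 and CEMIP from -0.015 to 0.12. The cause of these shifts was not tested. Genes under 1 CPM are the least certain at this depth.

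NTC and siCEACAM6#2 replicates of the same number had correlations of deviations of 0.065, -0.054, 0.039 and -0.082, so the numbers were not taken to pair the samples. With a replicate block 284 genes were called, 202 of them among the 221, and no sample correlated best with its own number.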

Other observations

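Host genes of small nucleolar RNAs, a set chosen after their values were seen, were also looked at. Of 28 tested, ZFAS1, GAS5, SNHG16 and SNHG29 rose and none fell by limma-voom, beside 0.613% of all genes tested called higher, with log2 fold changes of 0.36, 0.35, 0.30 and 0.27. The median of the 28 was 0.10, and 20 were above 0, as were 50.1% of all genes tested. Because the set was chosen for its values, these counts support nothing.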
